A study of Ovis aries with 12 samples.

Results

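Calcium, potassium and chloride channels of the sheep oviduct isthmus were examined through 9 genes: *CACNA1C*, *CACNA1D*, *CACNA1G*, *CACNA1H*, *CACNB2*, *KCNK2*, *KCNMA1*, *KCNMB1* and *ANO1*. Every transcript of these genes that could be paired with a gene symbol was read singly and as a sum per gene in all 12 libraries. A paired transcript was found for 5 of the 9 genes, among 10771 genes with one. *CACNA1D*, *CACNB2*, *KCNK2*, *KCNMA1* and *KCNMB1* had 8 such transcripts, and 2 more, 1 of *CACNA1D* and 1 of *KCNK2*, were paired only through the study's own list of differentially expressed transcripts. *CACNA1C*, *CACNA1G*, *CACNA1H* and *ANO1* were not analysed here, because none of their reference transcripts (7, 24, 5 and 12) matched an identifier in the table.

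The samples were oviduct isthmus of Small-Tailed Han ewes aged 2.5 ± 0.5 years that had all carried a progesterone device (300 mg) for 12 days, and that were genotyped for *FecB*, an allele of the BMP receptor gene *BMPR1B* that raises litter size. MF and ML were *FecB* BB ewes in the follicular phase, 45 to 48 h after device removal, and in the luteal phase, on day 9, and wF and wL were *FecB* ++ ewes at the same times, with 3 ewes in each group. The comparisons asked how the isthmus transcriptome differs with phase within each genotype and with genotype within each phase. Each library was the bulk tissue of 1 ewe, so smooth muscle, epithelium and stroma were measured together and all ewes were synchronised.

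The isthmus is the muscular segment of the oviduct that moves gametes and embryos towards the uterus. Its muscle contracts when calcium enters through voltage-gated L-type and T-type channels, and it relaxes when potassium channels carry the membrane back to a negative voltage. *CACNA1D* and *CACNA1C* encode pore-forming subunits of L-type channels, *CACNA1G* and *CACNA1H* those of T-type channels, and *CACNB2* an auxiliary subunit that brings L-type pores to the membrane. *KCNMA1* is the pore of the large-conductance calcium-activated potassium channel (BK channel), *KCNMB1* is its smooth muscle regulatory subunit, and *KCNK2* is a background potassium channel that opens when the membrane is stretched. *ANO1* is a calcium-activated chloride channel of pacemaker cells.

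Levels are given in FPKM as the authors deposited them, a count of fragments corrected for transcript length and for the size of the library. The FPKM of a library summed to between 349733 and 371526 in ML and to between 379288 and 456531 in the other groups. The study reports average clean reads and mapping rates per group, which were not used here. A depth could not be read from the FPKM of single libraries. Low transcripts were compared with those of MF1, but at most 4.19% of them shared a common ratio in any library. ML2, ML3, wF2 and wL2 stood apart from the other 8 libraries on the first principal component, which held 36.7% of the variance. The smooth muscle score, an average of log2 levels over 10 genes (of 14 listed), was 7.56, 8.504, 8.17 and 7.69 in these 4 libraries and 4.58 to 6.68 in the others. *DES*, a muscle filament gene, was present throughout (49.8 to 969 FPKM), as were the epithelial genes *EPCAM* and *KRT8*. The score of 8 ciliated cell genes was -1.18 in ML3 and at most 3.79 in all 4 libraries, against 4.48 to 5.56 in the other 8. A score of *EPCAM* and *KRT8* was 5.45 to 7.39 in the 4 libraries and 7.71 to 8.43 in the other 8. The 4 libraries thus were higher in muscle genes and lower in epithelial genes. The main differences that rest on these 4 libraries are given with and without them. Fitted differences of single genes outside the 9 that were not called are given with them only. Without the 4 libraries ML is ML1 alone and wL is wL1 and wL3, and the test then assumes that the lone ML library varies like those of the other groups.

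The order of the gene sums over the 12 libraries was *KCNMB1* (29.7 ± 24.2 FPKM, SD, n = 12), *KCNMA1* (29.3 ± 19.2), *CACNB2* (4.29 ± 2.50), *CACNA1D* (1.94 ± 2.75) and *KCNK2* (0.151 ± 0.260). *KCNMB1* exceeded *KCNMA1* in 6 of 12 libraries, so these neighbours did not differ beyond their spread. *KCNMA1* exceeded *CACNB2* in 12 of 12 libraries. *CACNB2* exceeded *CACNA1D* in 10 of 12, and *CACNA1D* exceeded *KCNK2* in 8 of 12. The sums hold only the transcripts that could be paired, 3 of *CACNA1D*, 2 of *KCNK2* and 1 of each other gene, so the true gene totals may be higher.

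**Figure D1:**
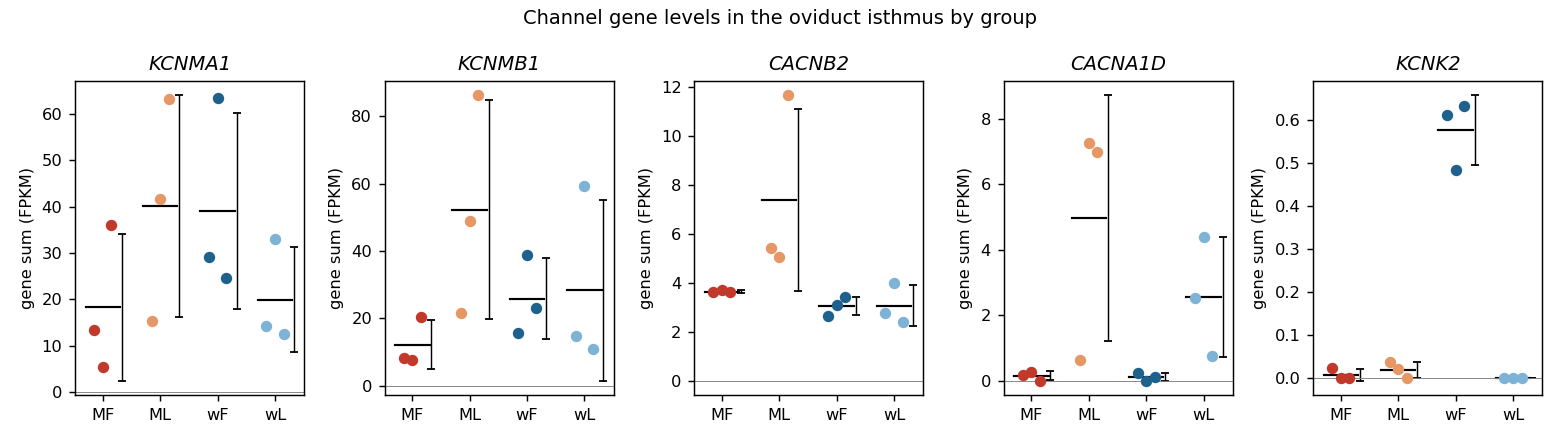
Gene sums in FPKM (vertical axis, a separate linear scale for each gene) by group (horizontal axis), with a point for each library, a horizontal line for the group mean and a bar for the SD to the right of the points (n = 3). *CACNA1D* lies between 0 and 0.257 in the 6 follicular libraries and between 0.637 and 7.27 in the 6 luteal ones, while *KCNK2* is above 0.0368 only in wF.

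Across the comparisons few of the 5 channel genes were called. A gene counted as called at an adjusted p under 0.05 (limma over all genes, Benjamini-Hochberg) and a log2 difference of at least 1 in size. Between MF and ML 0 of 5 were called (3 at an unadjusted p under 0.05), where 1.73% of all genes were called and 25.5% had such a p. Between wF and wL, and between ML and wL, 0 of 5 were called (2 and 1 at an unadjusted p under 0.05), and 0.0% of all genes were called while 8.79% and 13.1% had such a p. Between the genotypes over both phases and in the interaction of phase and genotype, 0 of 5 were called (2 and 2 at an unadjusted p under 0.05), against 0.0115% of all genes called in each and 3.19% and 13.0% with such a p. These counts include *KCNK2*, whose wF pattern was known when the genes were chosen. A filter at a mean FPKM of at least 1 left 4 of the genes, without *KCNK2*. Then 1 had such a p between wF and wL, 1 between the genotypes and 0 in the interaction. Of the 7390 genes then tested, 709, 210 and 1045 had such a p in these comparisons. The count stayed 3 between MF and ML and 1 between ML and wL.

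*CACNA1D* had the largest fitted difference between the phases among the 5 genes. Its sum of 3 paired transcripts was 0.186, 0.257 and 0 FPKM in MF1 to MF3 and 0.637, 7.27 and 6.98 in ML1 to ML3. In the *FecB* ++ ewes it was 0.223, 0 and 0.121 in wF1 to wF3 and 2.52, 4.39 and 0.737 in wL1 to wL3. All 6 luteal libraries were above all 6 follicular libraries, in both genotypes. Of the 8676 genes tested, 1.82% showed such a separation with the follicular libraries lower.

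The group means of *CACNA1D* were 0.148 ± 0.133 FPKM in MF and 0.115 ± 0.112 in wF, below 4.96 ± 3.75 in ML and 2.55 ± 1.82 in wL (SD, n = 3). On the log2(FPKM + 0.1) scale, which understates differences of low genes, the follicular level was lower by a log2 difference of -3.72 (SE 0.69, limma over all genes, Benjamini-Hochberg adjusted p = 0.039). In this comparison of phases over both genotypes 0.853% of all genes were called (0.161% as lower in the follicular phase), and *CACNA1D* was. The genes were chosen with earlier results of these data known. Neither the separation of the phases nor the call of *CACNA1D* is therefore an independent test. *KCNK2* was called too, but it passed the filter on low values only through wF, where it was known to be high, so nothing is read from that call. Within genotype, *CACNA1D* did not pass the threshold: the log2 difference was -3.96 (SE 0.97, limma adjusted p = 0.058) between MF and ML and -3.48 (SE 0.97, limma adjusted p = 0.489) between wF and wL. The interaction of phase and genotype was -0.48 (SE 1.38, limma adjusted p = 0.872), so no difference between the genotypes in the phase effect was detected, with an SE too wide to call the effects alike.

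The call of *CACNA1D* depended on the libraries used. Without ML2, ML3, wF2 and wL2 the remaining luteal libraries read 0.637, 2.52 and 0.737 FPKM against 0 to 0.257 in the 5 follicular ones, with a log2 difference of -2.12 (SE 0.62, limma adjusted p = 0.160). With any 1 library left out the log2 difference ranged from -4.27 to -3.44, and the gene was called only without ML1 or without wL3 (limma adjusted p 0.0173 to 0.0935). It was also not called with 1 FPKM added before the log2 (limma adjusted p = 0.0589) or with the age of the ewes as a covariate (limma adjusted p = 0.0608). wF2, with a smooth muscle score of 8.17, read 0 for the *CACNA1D* sum. It held 0.984 FPKM once the transcript paired only through the study's list was added. Adjusted for the score of each library, the log2 difference between the phases was -3.54 (limma adjusted p = 0.041). Within genotype it was then -3.29 between MF and ML and -3.79 between wF and wL (limma adjusted p 0.250 and 0.377). The part of muscle content in these differences was not tested.

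The transcripts of *CACNA1D* did not behave alike. XM_012099902.2 was the main one in ML2 and ML3, at 0.637, 5.52 and 6.78 FPKM in ML1 to ML3 against 0, 0.139 and 0 in MF1 to MF3. In the *FecB* ++ ewes it read 0.178, 0 and 0 in wF1 to wF3 and 1.32, 1.62 and 0.306 in wL1 to wL3. Of the *CACNA1D* transcripts this one separated the phases completely, as did 1.59% of transcripts with the follicular libraries lower. It passed the filter on low values only through the luteal libraries where it was high, so its difference is a description.

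XM_012099903.2 was higher than XM_012099902.2 only in wL2. It read 1.07, 2.43 and 0.198 FPKM in wL1 to wL3 and 0, 1.43 and 0 in ML1 to ML3, and 0 to 0.117 in the follicular libraries. It thus was listed at 0 in ML3, where XM_012099902.2 was highest. XM_004018382.3 stayed at or below 0.341 FPKM in all 12 libraries and was listed at 0 in 5 of them. None of the 7 tested transcripts that were paired through the reference was called between MF and ML, where 0.272% of all transcripts were, between wF and wL (0.00959%), MF and wF (0.016%), ML and wL (0.032%) or the phases (0.233%).

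The 4th transcript, XM_012099894.2, was paired only through the study's list, which was chosen on these libraries, so its values are a description. It read 0.949 and 1.14 FPKM in MF2 and MF3, 0.871 in ML1, and 0.984 and 1.34 in wF2 and wF3. In the other 7 libraries it was at most 0.003. It was thus present in 4 follicular libraries and 1 luteal library, and near 0 in MF1 and wF1 as well as in 5 luteal libraries.

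Adding XM_012099894.2 to the sum changed the picture of the gene. The follicular totals were then 0.189, 1.21 and 1.14 FPKM in MF and 0.226, 0.984 and 1.46 in wF. The luteal totals were 1.51, 7.27 and 6.98 in ML and 2.52, 4.39 and 0.740 in wL. The phases overlapped, since wL3 fell below 4 follicular libraries and the log2 difference was -1.94 in place of -3.72. XM_012099894.2 made up 78.7%, 100% and 57.7% of this total in MF2, MF3 and ML1, 100% and 91.7% in wF2 and wF3, and at most 1.32% in the rest.

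**Figure D2:**
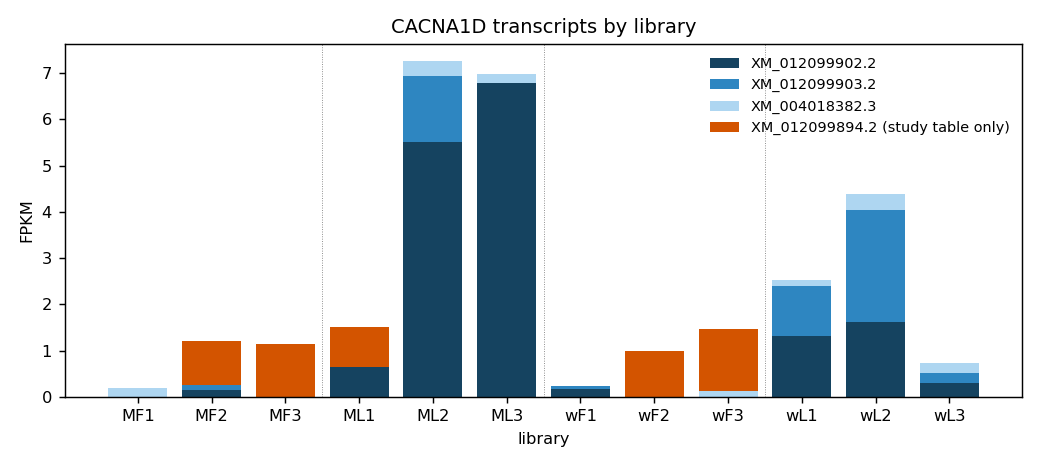
FPKM of the 4 *CACNA1D* transcripts (stacked bars from 0, vertical axis) in each of the 12 libraries (horizontal axis), with the transcript paired only through the study's list in orange. The orange transcript is visible in MF2, MF3, ML1, wF2 and wF3, and XM_012099902.2 reaches 5.52 and 6.78 FPKM in ML2 and ML3.

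*CACNB2*, the auxiliary subunit, was measured through XM_012188451.2. It read 3.61, 3.71 and 3.61 FPKM in MF1 to MF3, 5.42, 5.07 and 11.7 in ML1 to ML3, 2.65, 3.09 and 3.41 in wF1 to wF3, and 2.78, 4.001 and 2.40 in wL1 to wL3. The lowest ML value, 5.07, exceeded every value in the 3 other groups. MF was also above wF, by a narrow gap between 3.61 and 3.41.

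No comparison of *CACNB2* was called. The log2 difference was -0.89 (SE 0.33, limma adjusted p = 0.137) between MF and ML, and 1.17 (SE 0.33, limma adjusted p = 0.380) between ML and wL. Groups that did not overlap were common over all genes: 14.4% of genes were lower in MF than in ML in every library, 4.83% were higher in ML than in wL, and 5.16% were higher in MF than in wF. The difference between MF and ML was -0.51 without ML3, -0.56 without the 4 libraries and -0.46 once adjusted for the smooth muscle score (limma adjusted p 0.350, 0.353 and 0.554). That between ML and wL was 0.79 without ML3 and 1.04 without the 4 libraries (limma adjusted p 0.792 and 0.375).

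*KCNK2*, the stretch-opened potassium channel, was measured in the *FecB* ++ follicular ewes almost alone when its reference transcripts were read. The sum was 0.614, 0.486 and 0.635 FPKM in wF1 to wF3, 0.0229, 0 and 0 in MF1 to MF3, 0.0368, 0.0212 and 0 in ML1 to ML3, and 0 in all of wL. The lowest wF value, 0.486, was above every other library (3.71% of all genes were lower in every MF than in every wF library, and 4.31% higher in every wF than in every wL library), and *KCNK2* was listed at 0 in 6 of 12. This pattern between MF and wF was among the results known when the genes were chosen, so these values are a description. In that comparison 0.0231% of all genes were called and 1 of the 5 channel genes, *KCNK2*, and nothing is read from that count. Its call between the phases came from the same wF libraries.

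XM_012187747.2 carried the wF signal, at 0.395, 0.486 and 0.635 FPKM, and XM_004013881.3 added 0.218 in wF1 and was listed at 0 in the other 11 libraries. XM_004013882.3, paired only through the study's list, was listed at 0 in all 3 wF libraries. It read 0.166, 0.134 and 0.250 in MF1 to MF3, 0.353, 0.286 and 0.144 in ML1 to ML3, and 0.179, 0.473 and 0.190 in wL1 to wL3. XM_012187747.2 was thus high where XM_004013882.3 was listed at 0. With it, *KCNK2* totalled 0.614, 0.486 and 0.635 FPKM in wF as before, and 0.189, 0.134 and 0.250 in MF, 0.390, 0.307 and 0.144 in ML, and 0.179, 0.473 and 0.190 in wL. The wF libraries were still the highest, but by a gap of 0.486 against 0.473, and every library held some *KCNK2*.

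XM_004013882.3 made up 87.9% to 100% of the *KCNK2* total in MF, ML and wL and 0% in wF. On the log2(FPKM + 0.1) scale the difference between MF and wF was -2.65 for the reference transcripts and -1.23 for the total of 3. Between the phases it was 1.30 and 0.28. These differences depend on the added 0.1, since whole groups were at or near 0. The number of fragments behind the values, all at or below 0.635 FPKM, cannot be read from FPKM alone.

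**Figure D3:**
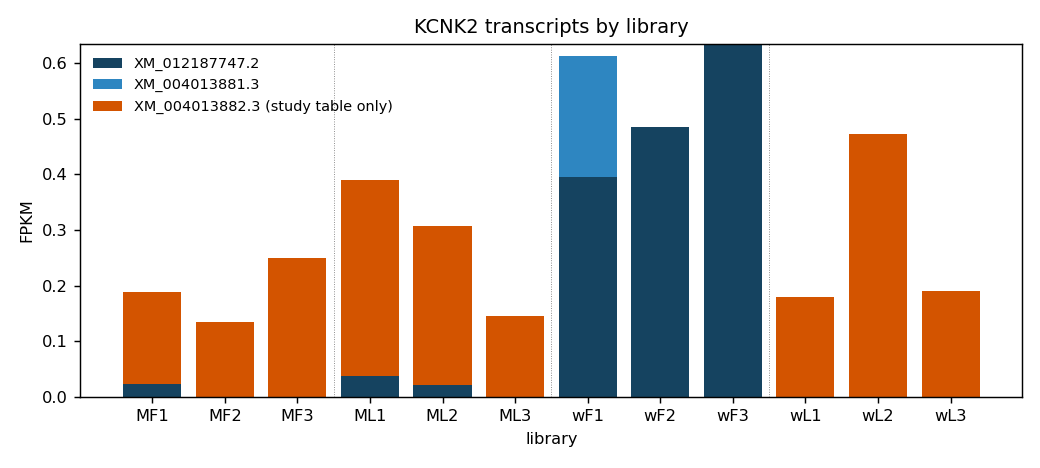
FPKM of the 3 *KCNK2* transcripts (stacked bars from 0, vertical axis) in each of the 12 libraries (horizontal axis), with the transcript paired only through the study's list in orange. Orange makes up 87.9% to 100% of the bars in MF, ML and wL and is absent from wF, where the total is 0.486 to 0.635 FPKM.

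*KCNMA1*, the BK channel pore, was measured through NM_001303455.1 and was abundant in every library. It read 13.4, 5.47 and 36.0 FPKM in MF1 to MF3, 15.4, 41.6 and 63.2 in ML1 to ML3, 29.2, 63.3 and 24.6 in wF1 to wF3, and 14.2, 32.9 and 12.5 in wL1 to wL3. The groups overlapped in every comparison. The highest 2 libraries, wF2 and ML3, belonged to different phases and genotypes and to the 4 libraries with the highest smooth muscle scores.

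*KCNMB1*, the regulatory subunit, was measured through XM_004016863.3. It read 8.39, 7.77 and 20.5 FPKM in MF1 to MF3, 21.6, 49.1 and 86.2 in ML1 to ML3, 15.6, 38.97 and 23.0 in wF1 to wF3, and 14.9, 59.2 and 11.0 in wL1 to wL3. MF was below ML in every library, by a gap of 20.5 against 21.6, as were 14.4% of all genes. The 4 highest values were those of ML3, wL2, ML2 and wF2.

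Neither BK channel gene was called in any comparison. *KCNMB1* differed by -2.02 (SE 0.70, limma adjusted p = 0.121) between MF and ML and by 0.17 (SE 0.70, limma adjusted p = 0.951) between wF and wL. *KCNMA1* differed by -1.30 (SE 0.73, limma adjusted p = 0.276) and 0.98 (SE 0.73, limma adjusted p = 0.729). The difference between these phase effects, the interaction, was -2.19 (SE 0.99) for *KCNMB1* and -2.29 (SE 1.03) for *KCNMA1*, with a limma adjusted p of 0.377 for both. Without the 4 libraries the difference between MF and ML1 was -0.96 for *KCNMB1* (SE 0.56, limma adjusted p = 0.396) and -0.15 for *KCNMA1* (SE 0.87, limma adjusted p = 0.941).

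**Figure D4:**
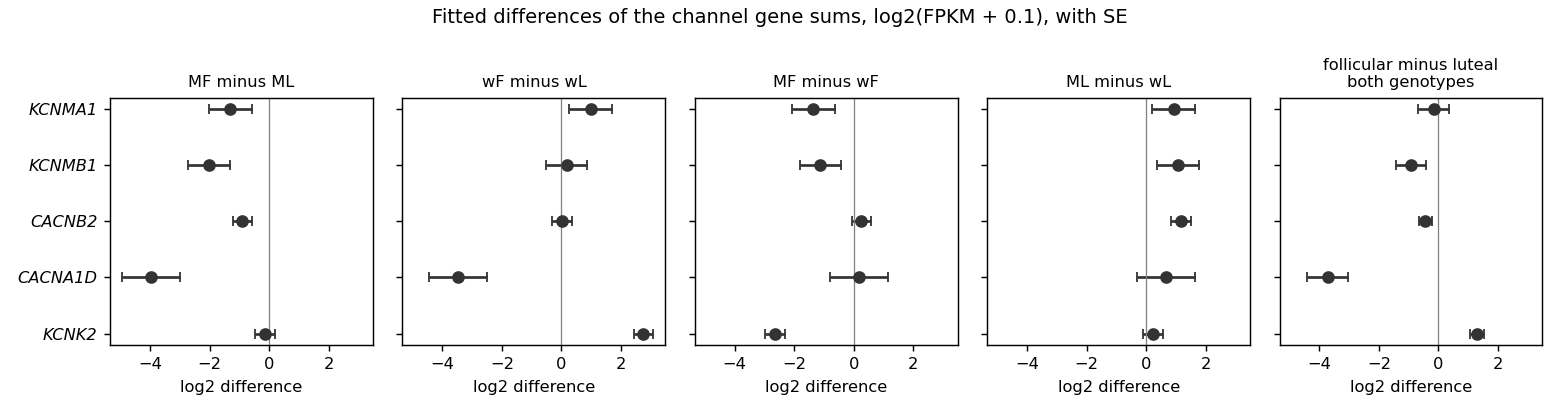
Fitted log2 differences of the 5 gene sums (points, horizontal axis, log2(FPKM + 0.1) scale) with their SE (bars) in 5 comparisons (panels). *CACNA1D* lies at -3.96 and -3.48 in the phase comparisons of the 2 genotypes, while *KCNMA1* lies at -1.30 in *FecB* BB and 0.98 in *FecB* ++ ewes.

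Both BK channel genes followed the smooth muscle genes from library to library. Over the 12 libraries the SD of log2 *KCNMA1* was 1.05, and it was 0.50 once the smooth muscle score of the library (SD 1.25) was subtracted. For *KCNMB1* the SD went from 1.11 to 0.40. The SD did not shrink in this way for *CACNA1D* (2.25 to 2.19) or *KCNK2* (1.21 to 1.53). For *CACNB2* it went from 0.60 to 1.03, but an SD so far below that of the score could not shrink on subtraction. Nothing is read from that change. The mean log2 level of *CACNB2* was 2.41 in the 4 libraries with the highest scores and 1.79 in the other 8. With the score as a covariate the difference of *KCNMA1* between MF and ML was 0.23 in place of -1.30, and the interaction of *KCNMB1* was 0.15 in place of -2.19. In bulk tissue, fewer muscle cells and less RNA per muscle cell cannot be told apart.

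**Figure D5:**
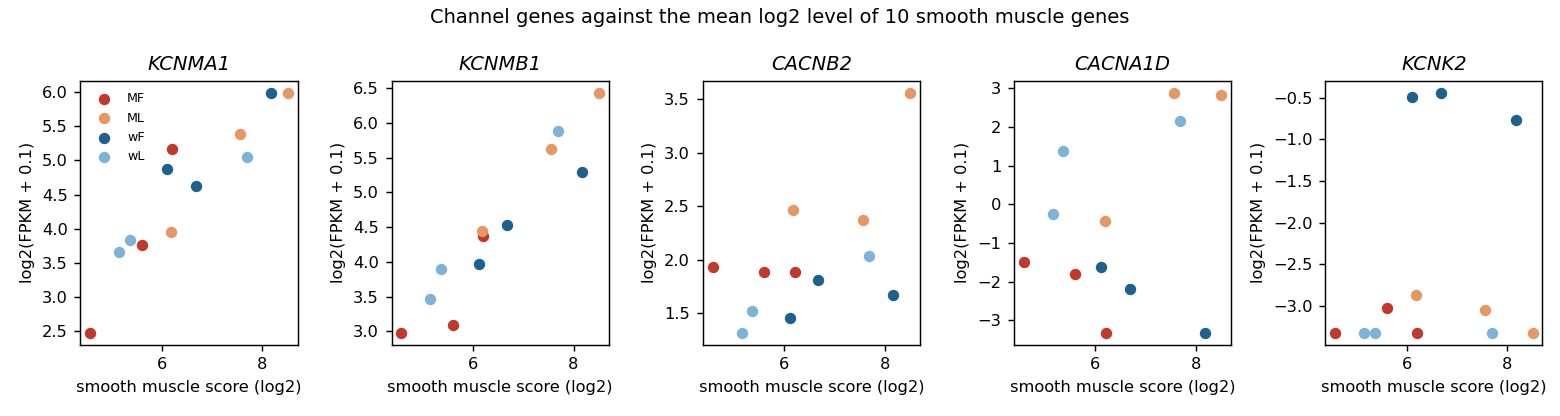
log2(FPKM + 0.1) of each channel gene (vertical axis) against the smooth muscle score of the library, in log2 units (horizontal axis), with a point for each of the 12 libraries coloured by group. *KCNMA1* and *KCNMB1* are higher where the score is higher, with an SD of 0.50 and 0.40 once it is subtracted, while *KCNK2* is high only in the 3 wF libraries, whose scores run from 6.11 to 8.17.

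The balance of the BK subunits was noticed after the values were seen. The ratio of *KCNMB1* to *KCNMA1* was 0.6246, 1.42 and 0.570 in MF1 to MF3, 0.533, 0.615 and 0.933 in wF1 to wF3, 1.40, 1.18 and 1.36 in ML1 to ML3, and 1.04, 1.80 and 0.878 in wL1 to wL3. The phases overlapped, since MF2 and wF3 were above the lowest luteal library, wL3. The geometric mean was 0.733 in the follicular and 1.24 in the luteal libraries, 1.70-fold higher. The luteal ratio was 1.65-fold higher within the *FecB* BB ewes, 1.75-fold higher within the *FecB* ++ ewes and 1.43-fold higher without the 4 libraries. No test is given, since the same libraries prompted the comparison.

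Other potassium channel genes were read from the list of all symbols that begin with KCN. Of 92 such genes, 49 had a transcript in the table and 32 were tested. Between MF and ML 2 of these 32 were called, both lower in MF, where 1.73% of all genes were called, and 1 of the 32 was called between the phases over both genotypes, where 0.853% were. None was called between wF and wL, MF and wF, or ML and wL by limma (0, 0 and 5 of the 32 had an unadjusted p under 0.05, against 8.79%, 3.15% and 13.1% of all genes). The median log2 difference of the 32 genes between MF and ML was -0.11, against 0.06 for all genes. Without the 4 libraries 0 of the 31 genes then tested were called by limma between MF and ML1 or between the phases, against 1.2% and 1.19% of all genes.

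*KCNG1*, a silent subunit that assembles with other voltage-gated potassium channel subunits, was the one called in both. It read 1.74, 2.39 and 2.21 FPKM in MF1 to MF3, 15.7, 21.7 and 46.7 in ML1 to ML3, 2.77, 6.29 and 6.48 in wF1 to wF3, and 7.35, 26.4 and 3.95 in wL1 to wL3. Every ML library was above every MF library, as for 14.4% of all genes, and wL3 alone of the luteal libraries fell within the follicular range. The log2 difference was -3.52 (SE 0.65, limma adjusted p = 0.043) between MF and ML and -2.22 (SE 0.46, limma adjusted p = 0.047) between the phases. Without the 4 libraries these were -2.84 (limma adjusted p = 0.0718) and -1.59 (limma adjusted p = 0.0939). With 1 library left out the difference between MF and ML was called only without MF3, ML1, wF2, wL2 or wL3 (limma adjusted p 0.0262 to 0.170), and that between the phases only without wL3 (0.0371 to 0.118). Adjusted for the smooth muscle score, the difference between MF and ML was -2.31 (limma adjusted p = 0.150). That between the phases was then -1.89 (SE 0.30, limma adjusted p = 0.0315).

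*KCNN3*, a small-conductance calcium-activated potassium channel, was called between MF and ML alone. It read 0.700, 0.636 and 0.850 FPKM in MF1 to MF3, 2.48, 4.06 and 8.68 in ML1 to ML3, 0.672, 1.37 and 0.990 in wF1 to wF3, and 0.549, 1.95 and 0.989 in wL1 to wL3. ML was above every other library; 14.4% of all genes were higher in every ML than in every MF library and 4.83% higher in every ML than in every wL library. The log2 difference was -2.47 (SE 0.52, limma adjusted p = 0.046) between MF and ML, and -1.65 (SE 0.49, limma adjusted p = 0.156) with ML1 alone in ML and without wF2 and wL2. With 1 library left out it was called only without ML1, wF2 or wL2 (limma adjusted p 0.0399 to 0.181), and adjusted for the smooth muscle score it was -1.47 (limma adjusted p = 0.179). The interaction with genotype was -2.39 (SE 0.74, limma adjusted p = 0.375), so a difference between the genotypes was not shown.

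The other potassium channel genes with the smallest unadjusted p in a comparison where none was called were *KCNK6*, *KCNIP2*, *KCNMB4* and *KCNAB1*. *KCNMB4*, another regulatory subunit of BK channels, read 2.72 ± 0.744 FPKM in MF, 4.70 ± 3.54 in ML, and 1.25 ± 0.157 in wF and 1.69 ± 0.547 in wL. Its log2 difference between MF and wF was 1.03 (SE 0.49, limma adjusted p = 0.997). *KCNIP2*, which binds voltage-gated potassium channels, was 0.514 ± 0.0282 in MF, 1.23 ± 0.312 in ML, and 0.339 ± 0.112 in wF and 0.600 ± 0.272 in wL. *KCNK6*, of the same family as *KCNK2*, had group means of 1.49 to 2.31, and *KCNAB1*, an auxiliary subunit, of 1.98 to 3.86.

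By limma the other channel lists held no called gene in any comparison. In the phase comparison of *FecB* BB ewes, 0 of the 2 calcium channel subunits, 2 of the 13 genes of calcium stores and 1 of the 3 anoctamins below had an unadjusted p under 0.05, against 25.5% of all genes. Among 13 other subunits of voltage-gated calcium channels, *CACNB1* and *CACNB3* were the 2 tested. *CACNB3*, an auxiliary subunit like *CACNB2*, read 17.6 ± 2.58 FPKM in MF and 12.1 ± 8.08 in wF, and 9.998 ± 4.04 in ML and 13.9 ± 5.44 in wL (SD, n = 3). It was the most abundant of the 3 paired auxiliary subunits in every group mean, and its log2 difference between MF and ML was 0.87 (SE 0.55, limma adjusted p = 0.332). *CACNB1* was between 1.04 and 1.68 FPKM in the group means.

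Of 28 genes of calcium stores, pumps and entry, 13 were tested. Between MF and ML 11 of the 13 had a log2 difference below 0 (median -0.60, against 0.06 for all genes). Between wF and wL the list went the other way, with 8 of the 13 above 0 (median 0.17, against -0.12 for all genes). Of all genes, 53.2% were above 0 between MF and ML and 38.9% between wF and wL. The smooth muscle list went the same ways. All 10 of its tested genes were below 0 between MF and ML (median -1.97), and 9 were above 0 between wF and wL (median 0.95). The part of muscle content in the calcium list was not tested. *STIM1*, the sensor of calcium in the endoplasmic reticulum, read 2.83 ± 0.884 FPKM in MF and 6.17 ± 2.72 in ML (log2 -1.06, SE 0.39, limma adjusted p = 0.137), but 4.44 ± 1.09 in wF and 3.03 ± 1.17 in wL (log2 0.57, SE 0.39, limma adjusted p = 0.708). *ORAI3*, a membrane channel that such sensors open, read 3.75 ± 0.733 in MF and 5.68 ± 0.765 in ML (log2 -0.60, SE 0.23, limma adjusted p = 0.144). *ITPR2*, a channel that releases stored calcium, read 3.82 ± 1.43 in wF and 4.97 ± 0.771 in wL, and *ORAI2*, of the same family as *ORAI3*, had group means between 1.76 and 2.51. *TRPC1* and *TRPC6*, cation channels of the plasma membrane, had group means of 5.24 to 8.23 and 3.03 to 13.1, and *ATP2B1*, a pump that expels calcium, of 60.2 to 103. The highest *TRPC6* mean, 13.1 in wF, had an SD of 14.6. Without the 4 libraries 9 of the 13 were below 0 between MF and ML1. Of 9 other anoctamins, the family of *ANO1*, 3 were tested. *ANO10* read 11.7 ± 4.14 FPKM in MF and 11.1 ± 5.89 in wF, and 4.32 ± 2.17 in ML and 4.65 ± 0.871 in wL (between the phases log2 1.29, SE 0.31, limma adjusted p = 0.0668). *ANO5* and *ANO6* were low, with group means of 0.202 to 0.401 and 0.159 to 0.295.

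Of 2 markers of pacemaker cells, the interstitial cells in which *ANO1* is best known, *KIT* was between 0 and 0.603 FPKM. *ETV1* was between 1.10 and 3.53 (median 1.98). These 2 genes, read from paired transcripts in bulk tissue, do not measure how many such cells were present.

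The genes whose log2 levels were most like those of each channel gene were listed among 6958 candidates over the 12 libraries, as a description. For *KCNMB1* they were *PDZRN3* (Pearson r = 0.994), *FBXL22* (0.988) and *PGM5* (0.985), and for *KCNMA1* they were *TAGLN* (0.943), a member of the smooth muscle list, *HEATR5A* (0.941) and *LBH* (0.939). For *CACNB2* they were *NFIL3* (0.921), *ADRA2A* (0.905) and *CREB5* (0.890). The closest to *CACNA1D* were *EHMT2* (0.936), *DPY19L4* (0.921), *MON2* (0.906), *GPNMB* (0.903) and *CRIPTO* (0.891). For *KCNK2*, *KLHL12* (0.781), *PPM1L* (0.768) and *VPS36* (0.757) were less close, with 6 libraries of *KCNK2* tied at 0. Without the 4 libraries the r of the genes named for *CACNB2* fell to between 0.654 and 0.682, while those named for *KCNMB1*, *KCNMA1* and *CACNA1D* were at least 0.788. For *KCNK2* they were 0.695, 0.964 and 0.986. These points share the group structure and the muscle content of the libraries.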

How the data were processed

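The authors deposited FPKM per transcript for 12 libraries, 43674 mRNA and 19969 lncRNA transcripts. Per the labels and the study's methods, reads were filtered with fastp, mapped to the sheep genome Oar_v3.1 with HISAT2 and assembled with StringTie. Total counts are not in the FPKM values, so no count test was used. The read numbers that the study reports were not used either. All 12 sample columns were used, with 0 left out.

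Transcripts were paired with gene symbols by RefSeq accession through a table of a later assembly (ARS-UI_Ramb_v3.0), from which no positions were taken. This paired 15202 mRNA transcripts (34.8%) with 10771 genes. Differences were fitted with limma 3.58.1 (R 4.3.3, with trend) to log2(FPKM + 0.1) of the 12 libraries as 4 group means, for 8676 genes and 31290 mRNA transcripts whose mean over the libraries reached 0.1 FPKM, and p-values were Benjamini-Hochberg adjusted over all of them. The filter kept all 5 channel genes and 9 of their 10 transcripts, but not XM_004013881.3, whose mean was 0.0182 FPKM. The fit was tested on simulated data.

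The genes and lists were chosen with earlier results of these data known. Every member gene and transcript was named. From the 4 other channel lists the rule named the genes called in a comparison or, where none was, the 2 of smallest unadjusted p. *KCNK2* and the transcripts of the study's list are given as descriptions. No pair of libraries was identical. The replicates were separate ewes.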

Additional observations from a re-analysis of the deposited data

Results flagged for a closer look

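In groups of 6 libraries of 1 phase, 3 values stood far from the nearest other library. XM_012099894.2 of *CACNA1D* was 0.871 FPKM in ML1 and at most 0.002 in the other 5 luteal libraries. *CACNB2* was 11.7 FPKM in ML3, against 5.42 in the next luteal library, ML1. XM_004013881.3 of *KCNK2* was 0.218 FPKM in wF1 and listed at 0 in the other follicular libraries. For normally distributed values chance flags about 1 in 20 such groups. A transcript at or near 0 in all but 1 library is flagged whatever its value, so that rate does not apply to these transcripts. ML3 was also the library with the highest smooth muscle score, 8.504, and the lowest ciliated cell score, -1.18, and the part of these in its *CACNB2* value was not tested.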

How the results depend on the processing

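The analysis as described called 0 of the 5 channel genes between MF and ML, 0 between wF and wL, 1 between MF and wF, 0 between ML and wL, 2 between the phases, 0 between the genotypes and 0 in the interaction, and 0 of the 9 transcripts in each comparison of 2 groups. Between MF and ML, 1 gene and 1 transcript were called with equal sums and 1 and 1 without ML1 (leaving out 1 library gave 0 to 1). Equal library sums, a scaling chosen after seeing the data, moved the median of all genes from 0.06 to -0.22 between MF and ML and from -0.04 to -0.22 between the phases.

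Without a filter on low values, and with limma without trend, 1 gene was called between wF and wL, between the genotypes and in the interaction, and 1 transcript between wF and wL and between MF and wF. Between MF and wF 0 genes were called with an added value of 1, a mean FPKM of at least 1, age as covariate, only the 2 groups compared, without ML2, ML3, wF2 and wL2, with the smooth muscle score as covariate, with the study's pairs added, with equal sums, and with each library left out (0 to 0). Between the phases 0 were called with an added value of 1, age as covariate, without the 4 libraries and with the study's pairs, 1 with a mean FPKM of at least 1, and 0 to 1 with 1 library left out (1 without MF3, ML1 or wL3). The causes were not tested.

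Of 18 pairs of libraries with the same replicate number, 7 had correlated deviations over 0.1 (-0.249 to 0.402). Libraries with different numbers were not compared, so whether the numbers mark a shared effect cannot be told. ML2, wF2 and wL2, which stood apart together with ML3, carry the same number. With the replicate block, 0 channel genes were called between MF and wF and 0 between the phases. The block also ended the calls of *KCNG1* between the phases and of *KCNN3* between MF and ML (limma adjusted p 0.0580 and 0.0539).

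With the smooth muscle score as covariate the log2 difference of *KCNMA1* between MF and ML was 0.23 and the interaction of *KCNMB1* was 0.15. Both were much smaller in size than the values without it and of opposite sign, and no reversal is read from the change of sign. The log2 difference in the ratio of *KCNMB1* to *KCNMA1* between the phases was -0.76, -0.52 without the 4 libraries and -0.96 to -0.66 with 1 library left out. Over all genes, calls between MF and ML ranged from 1 to 369 over the settings (150 as described) and those between the phases from 15 to 172 (74 as described).

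The calls of *KCNG1* and *KCNN3* between MF and ML were lost with age as covariate (limma adjusted p 0.0629 and 0.0700), without trend (0.0541 and 0.0576) and with only the 2 groups compared (0.0633 and 0.120), and that of *KCNN3* without a filter (0.0534). The call of *KCNG1* between the phases was lost with age (0.0808), without trend (0.0577), without a filter (0.0549) and with quantile normalization (0.0521).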
